A study of Microtus ochrogaster with 23 samples.

Results

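Casz1, which encodes a zinc-finger transcription factor, and the DNA around it were examined for DNA methylation in the dentate gyrus (DG) of prairie voles. The members were all cytosines with reads on chromosome 10 between positions 83997162 and 84090000 of MicOch1.0, which cover the gene (84002162 to 84054303, 52142 bp), 5 kb on its low side and 35697 bp on its high side. They came to 1035 of the 4051749 cytosines of the whole series, with 27 in the low-side flank, 636 in the gene span and 372 in the high-side flank. The locus was chosen on a single CpG cytosine in the high-side flank, at which “Attacker” and “Parental” levels do not overlap, so that the “Attacker” and “Parental” levels are given side by side as a description, and nothing is read from the number of calls that a test makes between these groups. The gene table used gives neither strand nor exons, and the ends of the gene are therefore called the low end and the high end.

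Casz1 is the vertebrate counterpart of castor, a fly factor that acts in the timing of neuroblast divisions. In the vertebrate retina Casz1 acts in progenitors after Ikzf1 and biases them toward later-born cell types, and in the heart and vessels it is needed for normal development, with Tbx5 as a partner and Egfl7 and Rhoa downstream. It represses genes together with NuRD, a complex that joins nucleosome remodelling, histone deacetylation and binding to methylated DNA. CpG-dense stretches at the starts of vertebrate genes are usually unmethylated, whereas isolated CpGs in gene bodies and between genes are usually methylated.

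The 23 animals were wild-type adult voles of a laboratory colony with 1 library each. “Attacker” (6 males) and “Parental” (6 males) were virgin males, housed with a same-sex sibling, that attacked or cared for an unfamiliar pup in a behaviour test. “Father” (5 males) and “Mother” (6 females) were pair-bonded voles living with their own litter and put through the same test. The virgin groups were thus split by the behaviour itself, and all groups had met a pup shortly before the tissue was taken. “Attacker” voles were taken from the pup once they attacked, so the length of this contact can also set them apart. “Father” and “Mother” differ in sex, and the virgin groups differ from “Father” in mating, pairing and litter at once. Reduced-representation bisulfite sequencing (RRBS) reads DNA fragments cut by the enzyme MspI, and a methylation level is the percentage of the reads at a cytosine that kept a C after bisulfite treatment. The DNA came from tissue punches, so that a level averages over all cell types of the punch, and a change in the mix of cells and a change within cells cannot be told apart.

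An animal had between 15535 and 28805 calls in the locus (median 19973), each read being counted at every CpG within it, and reads at 501 to 659 of its cytosines. Where an animal had reads, the median was 15 to 36 of them per cytosine. Of the 1035 cytosines, 21.5% were read in every animal and 9.86% in 1 animal only, against 21.05% and 19.1% in the whole series. Only 110 were covered by 10 or more reads in each of the 23 animals, of which 3 lay in the low-side flank, 60 in the gene span and 47 in the high-side flank.

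Neighbouring cytosines share reads, and covered cytosines less than 100 bp apart were therefore joined into clusters. A cytosine entered a cluster if it had reads in at least 4 animals of every group, which 426 did, and they formed 39 clusters, numbered from the low side. The clusters differed widely in level. The median over animals was under 5% in 5 clusters, between 5% and 20% in 6, between 20% and 80% in 24 and at 80% or more in 4.

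The methylation-free stretch of the locus lay across the high end of the gene. It consisted of clusters 19 to 22 with 126 cytosines over 1344 bp, from 607 bp inside the high end to 736 bp beyond it. Of 78179 calls there, 523 were methylated, which is 0.669% (Wilson 95% interval 0.614 to 0.729, covering counting error only). The animals ranged from 0% to 1.54% with a median of 0.666%, and each had at least 1946 calls. The group means were 0.476% ± 0.466 for “Attacker” (SD, n = 6), 0.908% ± 0.254 for “Parental” (SD, n = 6), 0.908% ± 0.409 for “Father” (SD, n = 5) and 0.467% ± 0.309 for “Mother” (SD, n = 6). Counting all covered cytosines within 2 kb of the high end, an animal's pooled level ranged from 0% to 2.19% over 87 cytosines inside the gene and from 0% to 5.78% over 115 cytosines outside it. All 23 animals thus had this stretch nearly free of methylation.

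The low end of the gene looked different. Within 2 kb outside it 10 cytosines were covered and none in every animal. Within 2 kb inside the low end 22 cytosines were covered, none of them in every animal, and the pooled level of an animal ranged from 0% to 69.1% (median 41.9%). The dense part began 1.86 kb inside the gene, where cluster 2 (48 cytosines over 507 bp) ranged from 12.7% to 35.9% between animals (median 24.3%) and cluster 3 (53 cytosines over 350 bp) from 3.85% to 22.1% (median 11.5%). In cluster 3 the means were 14.5% ± 4.25 for “Attacker” (SD, n = 6), 8.12% ± 3.49 for “Parental” (SD, n = 6), 11.1% ± 7.37 for “Father” (SD, n = 5) and 14.6% ± 3.63 for “Mother” (SD, n = 6). The groups overlapped, and no comparison tested at cluster 2 or 3 passed the adjusted threshold. A comparably dense cluster in the high-side flank, cluster 26 with 53 cytosines 61.5 kb from the low end, ranged from 2.92% to 15.2% (median 8.53%).

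The dense clusters were lower in level than the sparse ones, mostly through the methylation-free stretch. The 10 clusters of at least 10 cytosines had medians from 0% to 43.3% with a middle value of 10.02%, while the 29 smaller clusters had medians from 0% to 100% with a middle value of 30.9%. Without clusters 19 to 22, the other 6 dense clusters had medians from 8.53% to 43.3% with a middle value of 23.5%. The spread between animals was also smaller in the 10 dense clusters, where the gap between the lowest and the highest animal was 2.21 to 74.1 percentage points (median 15.3) against 25.3 to 100 (median 57.6) in the smaller clusters, which also have fewer reads. In the 6 dense clusters outside the stretch the gap was 12.2 to 74.1 points (median 32.3).

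**Figure D1:**
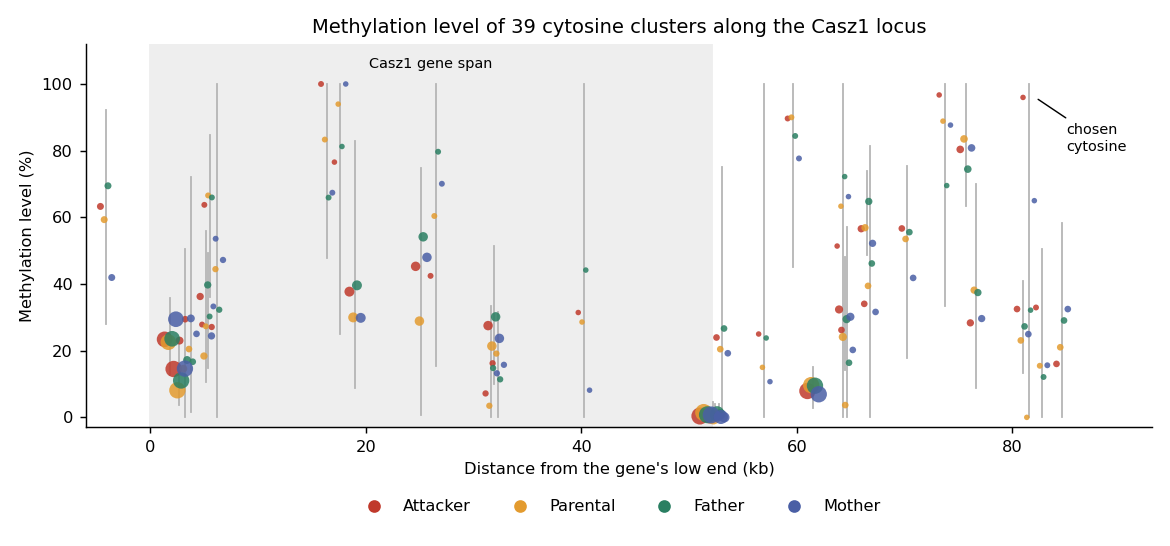
Methylation level (%) of the 39 clusters against the distance of their first cytosine from the low end of the gene (kb), with the gene span shaded. Dots are group means over animals with at least 10 reads, shifted sideways for clarity and larger for clusters with more cytosines, and grey lines run from the lowest to the highest animal. The 4 clusters across the high end of the gene lie near 0%, while most sparse clusters reach from low to high levels between animals.

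The chosen cytosine is at position 84083677, 29374 bp beyond the high end of the gene, and forms cluster 37 alone. Its nearest covered neighbours lie 448 bp below and 87 bp above, and the other cytosine of its CpG was not covered, so that no second strand speaks to its level. It had reads in 16 of the 23 animals, with 2 to 62 reads (median 21). Among “Attacker” voles, animals 2, 4 and 6 were at 100% on 21, 27 and 22 reads, animal 5 was at 83.9% on 62 reads, and animals 1 and 3 had no reads. Among “Parental” voles, animals 1, 2, 4 and 6 were at 0% on 19, 21, 11 and 38 reads, and animals 3 and 5 had no reads. Pooled over the group, 92.4% of the “Attacker” reads were methylated (Wilson 95% interval 86.6 to 95.8) as were 0 of 89 “Parental” reads, which allows a share of up to 3.37%. These values chose the locus, so the gap between the groups carries no test.

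The voles that took no part in the choice covered the whole scale at this cytosine. “Father” animals 1, 2, 4 and 5 were at 0%, 20%, 100% and 76.5% on 19, 25, 2 and 34 reads, a mean of 49.1% ± 46.9 (SD, n = 4). “Mother” animals 3, 4, 5 and 6 were at 100%, 60%, 0% and 100% on 21, 30, 12 and 20 reads, a mean of 65.0% ± 47.3 (SD, n = 4). “Father” was 15.9 percentage points lower than “Mother”, a difference well within the spread (two-sided exact permutation test, p = 0.743, n = 4 in each group), and single animals moved it widely. The “Father” minus “Mother” difference was 0.49 points without “Father” animal 1, -6.18 without “Father” animal 2, -32.8 without “Father” animal 4 and -25.0 without “Father” animal 5. It was -4.22 points without “Mother” animal 3 or animal 6 and -37.5 without “Mother” animal 5. The “Father” mean lay between those of the virgin groups, 46.9 points below “Attacker” and 49.1 points above “Parental”. “Father” overlapped with “Parental” through animal 1, and with “Attacker” only through animal 4, which had 2 reads. The 3 “Father” voles with at least 10 reads had a mean of 32.2% and reached 76.5%, below each of the 4 “Attacker” voles. The virgin levels chose the locus, so that these comparisons with “Father” are values only and no separation is read from them. Over all groups, 6 of the 16 animals were at 0%, 6 at 100% and 4 in between, from 20% to 83.9%.

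The nearest cluster to the chosen cytosine was read more deeply. Cluster 36, whose 4 cytosines lie 487 to 556 bp below it, had a median of 351 calls and, pooled over its cytosines, ranged from 13.3% to 41.0% between animals. Its mean was 32.5% ± 6.99 for “Attacker” (SD, n = 6), 23.1% ± 8.14 for “Parental” (SD, n = 6), 27.3% ± 9.41 for “Father” (SD, n = 5) and 25.0% ± 5.21 for “Mother” (SD, n = 6), and all 4 groups overlapped. Within that cluster the cytosines differed more than the groups did. At 84083121 the group means were 2.44% to 12.1%, and at 84083189, with the same median depth of 146 reads, they were 36.2% to 55.3%. At 84083190, with a median of 27 reads, animals ran from 0% to 100%, as they did at the chosen cytosine.

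**Figure D2:**
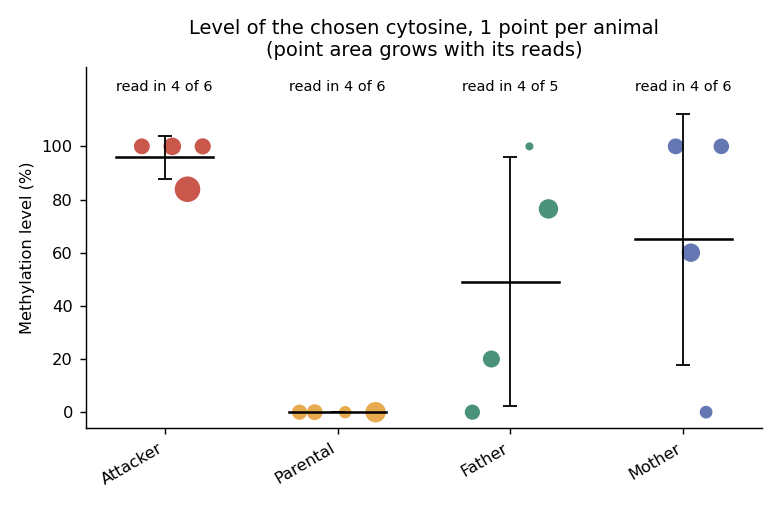
Methylation level (%) of the chosen cytosine in each animal with reads, by group, with the point area growing with the number of reads. Black lines are group means with SD (n = 4 in each group). “Attacker” voles lie at 83.9% to 100%, “Parental” voles at 0%, and “Father” and “Mother” voles at 0% to 100%.

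Differentially methylated cytosines (DMCs) were called with a beta-binomial Wald test in the manner of DSS at every cytosine of the series with reads in both groups. A DMC had a score under 0.05, the score being the model's probability that the difference is at most 15 percentage points. In “Attacker” vs “Parental”, the comparison on which the locus was chosen, 9 of 820 tested members were DMCs (1.10%, against 0.733% of all tested cytosines), and nothing is read from that count. In “Attacker” vs “Father” 5 of 798 were DMCs (0.627%, against 0.905% over all cytosines), with 2 hypermethylated and 3 hypomethylated in “Attacker”. In “Parental” vs “Father” 12 of 785 were DMCs (1.53% against 1.12%), with 4 hypermethylated and 8 hypomethylated in “Parental”. In “Father” vs “Mother” 9 of 766 were DMCs (1.17% against 1.1%), with 8 hypermethylated and 1 hypomethylated in “Father”. The members' share was thus below that of the whole series in 1 of the comparisons tested and above it in the other two. After Benjamini-Hochberg adjustment of the Wald p-values over all tested cytosines, 0, 1 and 0 members in the 3 comparisons that did not choose the locus, in the same order, had an adjusted p under 0.05 with a difference over 15 points, against 8, 19 and 12 at an unadjusted p under 0.05 with that difference. Over the whole series 836 of 2669823, 1371 of 2635844 and 1293 of 2612548 cytosines met the adjusted criterion. The unadjusted criterion was met by 29776, 36149 and 35959. Leaving out single animals moved the counts, and the count over the whole series rose without any 1 of the animals. “Attacker” vs “Father” gave 9 to 12 without any of “Attacker” animals 3, 4 and 6 or without any 1 “Father”. Without “Father” animal 4 it was 12 of 768 members and 36889 of 2567103 cytosines of the series, against 24153 of 2669823 with all animals. “Parental” vs “Father” gave 19 of 773 without “Father” animal 3 (38260 of 2559606 over the series). “Father” vs “Mother” gave 14 without “Father” animal 2 or animal 3 (38773 and 37616 over the series, against 28760 with all animals).

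Most of these DMCs rested on few animals. The 35 calls fell on 30 cytosines, and 34 of the calls lay outside the clusters, that is at cytosines that fewer than 4 animals of some group had reads at. In 21 of the 35 calls 1 of the groups was a single animal, and in 22 the group means differed by exactly 100 percentage points. None lay in the low-side flank. Where 10 or more reads in 4 or more animals per group were required, no call was left in the 3 comparisons other than “Attacker” vs “Parental”. That left 297, 280 and 307 members tested. Over the series 494 of 1159332, 500 of 1187448 and 646 of 1183211 cytosines were called in the same order. At such shares, 0 calls among these members are no result about the locus. Calls over the series were not counted at 10 reads in 3 animals per group. Nothing is therefore read from the number of calls that qualified to be named there, which was 2. Besides the chosen cytosine it was position 84004894 in “Father” vs “Mother”, 2.73 kb inside the low end of the gene, with “Father” animals 2, 3 and 5 at 100%, 80% and 100% on 12, 45 and 17 reads. “Mother” animals 1, 2, 3, 4 and 6 were at 0%, 42.9%, 25%, 51.7% and 0% on 21, 7, 20, 29 and 9 reads, so that the groups did not overlap, but the adjusted p was 1 (beta-binomial Wald test over all cytosines).

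The 1 member outside the chosen contrast whose adjusted Wald p was under 0.05 was position 84033726 in “Parental” vs “Father”, 31.6 kb inside the low end, and it rested on 2 voles of each group. “Parental” animals 2 and 3 were at 0% on 27 and 12 reads, and “Father” animals 1 and 3 at 100% on 27 and 11 reads. The other “Parental” and “Father” voles had no reads there, and among the groups not compared the levels again ran from 0% to 100%, with “Mother” animals 1, 2, 3 and 5 at 100%, 83.3%, 0% and 0% on 19, 30, 15 and 6 reads. In simulated counts for “Parental” vs “Father”, an adjusted p under 0.05 gave 97 false calls beside 74.5% of 200 changed cytosines. Whether these rates hold at a cytosine read in only 2 voles of each group was not tested. Nothing about the call at 84033726 is therefore read from them.

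DMCs close together were not separate observations. At 84036864 and 84036887, 23 bp apart and singled out after their values were seen, every animal had the same number of reads at both positions. “Parental” animal 3 was at 0% at the lower and at 100% at the upper of them on 26 reads. “Father” animals 3 and 4 were at 100% at the lower and at 0% at the upper, on 9 and 20 reads. Both were DMCs of “Parental” vs “Father”, in opposite directions and from 3 animals, and “Mother” animal 2 was at 100% at both on 31 reads.

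To compare groups over many reads, the mean level of each segment was taken over its well-read cytosines, those with 10 or more reads in each of the 23 animals. In the gene span 18 of the 60 lay in cluster 19 of the methylation-free stretch and 9 in cluster 16. The others lay in clusters 2, 3, 4, 6 and 7 near the low end, so that the mean leaves out most of the span. The Casz1 gene span was at 15.1% ± 1.83 for “Attacker” (SD, n = 6), 14.7% ± 4.35 for “Mother” (SD, n = 6), 13.8% ± 1.71 for “Father” (SD, n = 5) and 11.9% ± 4.50 for “Parental” (SD, n = 6). The “Attacker” voles ran from 12.1% to 17.5% with a median of 15.5%, and the “Parental” voles from 7.04% to 20.01% with a median of 11.4%. The “Father” voles were at 14.4%, 15.4%, 11.1%, 14.8% and 13.1%, and the “Mother” voles ran from 8.50% to 18.5% with a median of 16.7%. All 4 groups overlapped, and neighbours in this order differed by less than the larger of their SDs. “Attacker” was 1.38 points above “Father” (two-sided exact permutation test, p = 0.229, adjusted p = 0.344 over 9 segment tests). “Parental” was 1.87 points below “Father” (exact permutation, p = 0.42, adjusted p = 0.54), and the “Father” minus “Mother” difference was -0.982 points (exact permutation, p = 0.636, adjusted p = 0.716).

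Of the 47 well-read cytosines of the high-side flank, 24 lay in cluster 26. The flank was at 23.1% ± 3.91 for “Attacker” (SD, n = 6), 22.8% ± 1.52 for “Father” (SD, n = 5), 20.2% ± 3.05 for “Parental” (SD, n = 6) and 18.8% ± 2.95 for “Mother” (SD, n = 6). The “Father” voles were at 21.6%, 24.1%, 22.4%, 21.2% and 24.6%, above 5 of the 6 “Mother” voles, whose levels ran from 16.1% to 24.5% with a median of 18.01%. “Father” was 3.94 points above “Mother” (two-sided exact permutation test, p = 0.0303), which did not pass after adjustment over the 9 segment tests (adjusted p = 0.136). “Attacker” vs “Father” differed by 0.304 points (exact permutation, adjusted p = 0.879), and “Parental” vs “Father” by -2.57 points (exact permutation, adjusted p = 0.344).

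The low-side flank rested on 3 cytosines of 1 cluster, with 36 to 174 calls per animal, and was much higher. It was at 74.6% ± 21.1 for “Father” (SD, n = 5), 59.4% ± 16.2 for “Attacker” (SD, n = 6), 58.2% ± 18.1 for “Parental” (SD, n = 6) and 35.1% ± 19.7 for “Mother” (SD, n = 6). “Father” voles were at 66.7%, 93.8%, 60.9%, 51.9% and 100%, while “Mother” voles ran from 8.33% to 62.3% with a median of 38.6%. The gap of 39.5 points between “Father” and “Mother” gave an exact permutation p of 0.013 and an adjusted p of 0.117 over the 9 tests. The overlap was that 1 “Mother” vole lay above the lowest “Father” voles. Over all reads of the flank the gap was 19.9 points (exact permutation, adjusted p = 0.46). Neither virgin group differed from “Father” there beyond the spread (exact permutation, adjusted p = 0.344 in both comparisons).

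**Figure D3:**
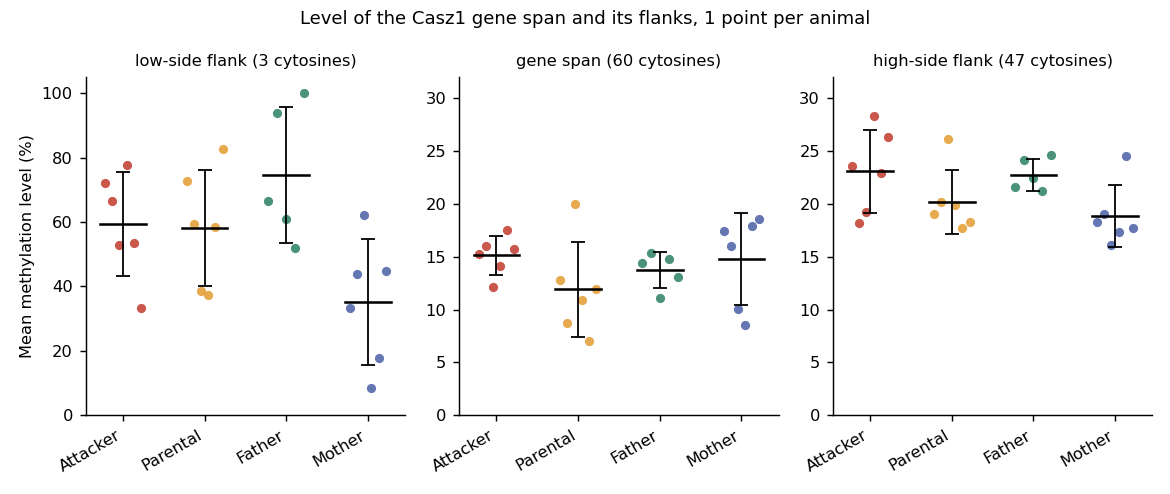
Mean methylation level (%) of the low-side flank, the gene span and the high-side flank of Casz1 over well-read cytosines, 1 point per animal, with group means and SD in black. The left panel has a longer axis than the other panels. In the low-side flank the “Mother” voles lie lowest, from 8.33% to 62.3%, and in the gene span all 4 groups overlap.

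Among the single clusters, 34 could be tested for “Attacker” against “Father”, 32 for “Parental” against “Father” and 33 for “Father” against “Mother”, with at least 4 animals of 10 reads in each group. None of these 99 tests had an adjusted p under 0.05 (two-sided exact permutation tests, smallest adjusted p = 0.551), while 7 had an unadjusted p under 0.05. The smallest unadjusted p that 6 against 5 animals can give is 0.00433. Over the 99 tests a single cluster at that p could not pass after adjustment, so the lack of a pass says little. “Father” was the higher group in 21 of 34, 21 of 32 and 22 of 33 clusters. The 3 comparisons share the “Father” animals, and clusters that lie close share fragments, so that these counts are not independent. The median difference was -1.27 points for “Attacker” minus “Father”, -2.33 points for “Parental” minus “Father” and 2.32 points for “Father” minus “Mother”.

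The smallest p belonged to cluster 30, 66.5 kb from the low end of the gene (84068665 to 84068761, 6 cytosines), with 579 to 1415 calls per animal. “Father” voles were at 73.9%, 57.7%, 62.2%, 62.6% and 67.4%, and “Mother” voles ran from 48.6% to 58.4% with a median of 51.4%. “Attacker” voles ran from 51.8% to 63.1% (median 56.6%) and “Parental” voles from 52.5% to 61.0% (median 56.9%). The “Father” mean was thus above those of the other 3 groups, by 12.6 points over “Mother” (exact permutation, p = 0.00866), by 7.89 over “Parental” (exact permutation, p = 0.013) while “Attacker” minus “Father” was -8.19 points (exact permutation, p = 0.0303), each with an adjusted p of 0.551. The 3 values share the “Father” animals. Without “Father” animal 1, the highest, the gap to “Mother” was 10.3 points (exact permutation, p = 0.019) and “Attacker” minus “Father” was -5.91 points (exact permutation, p = 0.0667).

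The calls of cluster 30 came mostly from a single cytosine, position 84068761, which had a median of 781 reads (370 to 1147), or 77.6% of the calls of the cluster. Of the 852889 cytosines read in every animal of the series, 0.198% were as deep. There “Father” voles were at 72.2%, 56.9%, 61.2%, 57.1% and 64.7%, and “Mother” voles between 43.1% and 50.4%, so that these groups did not overlap at this cytosine, which was singled out after its values were seen. The means were 62.4% ± 6.34 for “Father” (SD, n = 5), 54.6% ± 5.32 for “Parental” (SD, n = 6), 53.3% ± 4.94 for “Attacker” (SD, n = 6) and 46.4% ± 3.02 for “Mother” (SD, n = 6). It was no DMC in “Father” vs “Mother” (fitted difference 15.9 points, SE 8.17, adjusted p = 1 in the beta-binomial Wald test). The other 5 cytosines of the cluster together were at 72.4% ± 9.55 for “Father” (SD, n = 5) and 68.1% ± 10.6 for “Mother” (SD, n = 6). The part of the unusual depth in the result was not tested.

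Cluster 14 (2 cytosines of 1 CpG, 26.5 kb inside the gene) was at 42.4% ± 19.5 for “Attacker” (SD, n = 5) against 79.7% ± 20.97 for “Father” (SD, n = 5) (exact permutation, p = 0.0238, adjusted p = 0.551). “Father” voles were at 100%, 77.8%, 50.8%, 69.8% and 100%, and the 5 “Attacker” voles with at least 10 reads at 58.8%, 46.2%, 15.4%, 30.3% and 61.5%, with some overlap. Cluster 13 (14 cytosines over 244 bp, 25.2 kb inside the gene) was at 28.9% ± 13.8 for “Parental” (SD, n = 6) and 54.2% ± 18.6 for “Father” (SD, n = 5) (exact permutation, p = 0.039, adjusted p = 0.551). In cluster 1, which holds the well-read cytosines of the low-side flank, “Father” was at 69.5% ± 17.02 (SD, n = 5) and “Mother” at 41.9% ± 16.3 (SD, n = 6), with 1 “Mother” vole at 72.6% (exact permutation, p = 0.0346, adjusted p = 0.551). Cluster 19, in the methylation-free stretch, was at 1.46% ± 0.545 for “Parental” (SD, n = 6) and 0.786% ± 0.236 for “Father” (SD, n = 5) (exact permutation, p = 0.0303, adjusted p = 0.551), a gap of 0.674 points.

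**Figure D4:**
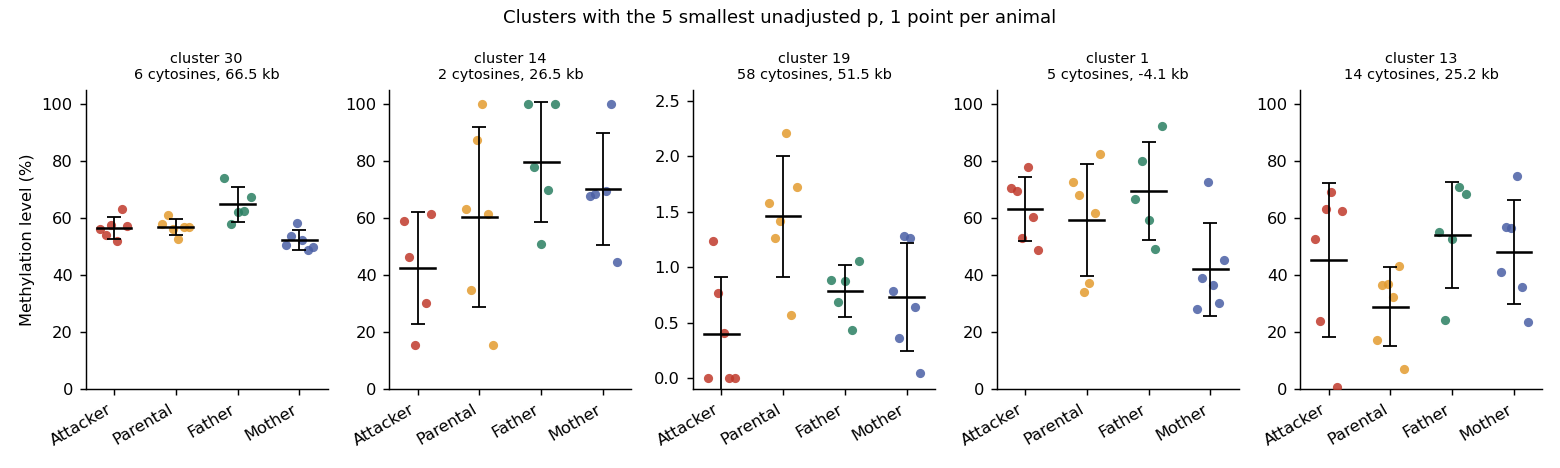
Methylation level (%) of the 5 clusters with the smallest unadjusted p, 1 point per animal, with group means and SD in black and the distance from the low end of the gene in each title. The panel of cluster 19 has an axis that ends under 3%, and the others run to 100%. “Father” voles lie highest on average in clusters 30, 14, 1 and 13, and the groups overlap in all 5.

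Among the clusters with 10 reads in 20 or more animals, the 5 with the widest range also spread widely within groups. Cluster 9 (3 cytosines, 6.23 kb inside the gene) reached from 0% to 100%, with the “Mother” voles alone covering that range and the “Parental” voles too. Cluster 18, a lone cytosine 40.2 kb inside the gene, also went from 0% to 100%, and cluster 14 from 15.4% to 100%. Cluster 12 (16 cytosines, 19.01 kb) ran from 8.75% to 82.9%, the highest being “Attacker” animal 6, and cluster 13 from 0.735% in “Attacker” animal 5 to 74.7% in “Mother” animal 4. In cluster 13 the single “Attacker” voles were at 52.5%, 23.9%, 63.0%, 69.3%, 0.735% and 62.3%, on 136 to 845 calls.

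The spread within groups was set beside counting error in the 27 clusters that had 10 reads in 20 or more animals and any methylated call. The SD between animals of a group was 1.83 to 8.49 times (median 3.97) the SD that the number of calls alone would give. In cluster 2 it was 5.88 points against 1.14, and in cluster 16 (14 cytosines, 31.9 kb inside the gene), which had the highest ratio, 12.95 points against 1.53. Calls of 1 read at neighbouring cytosines and copies of 1 molecule are counted separately here, so that the counting SD is a lower limit and ratios over 1 are no test.

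All-or-none levels were common at single cytosines. Of 242 members that 20 or more animals had 10 or more reads at, 67 (27.7%) had a mean level of 20% to 80%, against 6.97% of such cytosines in the whole series. At these 67, 18.5% of the animals' values were at exactly 0% or 100%. The share was 52.1% for values on 10 to 19 reads, 25.3% on 20 to 49 reads and 7.16% on 50 or more reads. The same shares in the whole series were 62.9%, 30.8% and 9.68%. The strands of a CpG also differed within an animal. Where an animal had at least 10 reads on both cytosines of a CpG and their mean was 20% to 80%, the levels of the strands differed by a median of 29.7 points in the locus (656 values) and 41.7 points in the series, and by over 50 points in 26.2% and 34.4% of the values. The chosen cytosine, with a median of 21 reads and 1 strand covered, was not among the 242, since only 16 animals had reads there. Of these 16, 6 were at 0% and 6 at 100%. The part of depth in its levels was not tested.

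**Figure D5:**
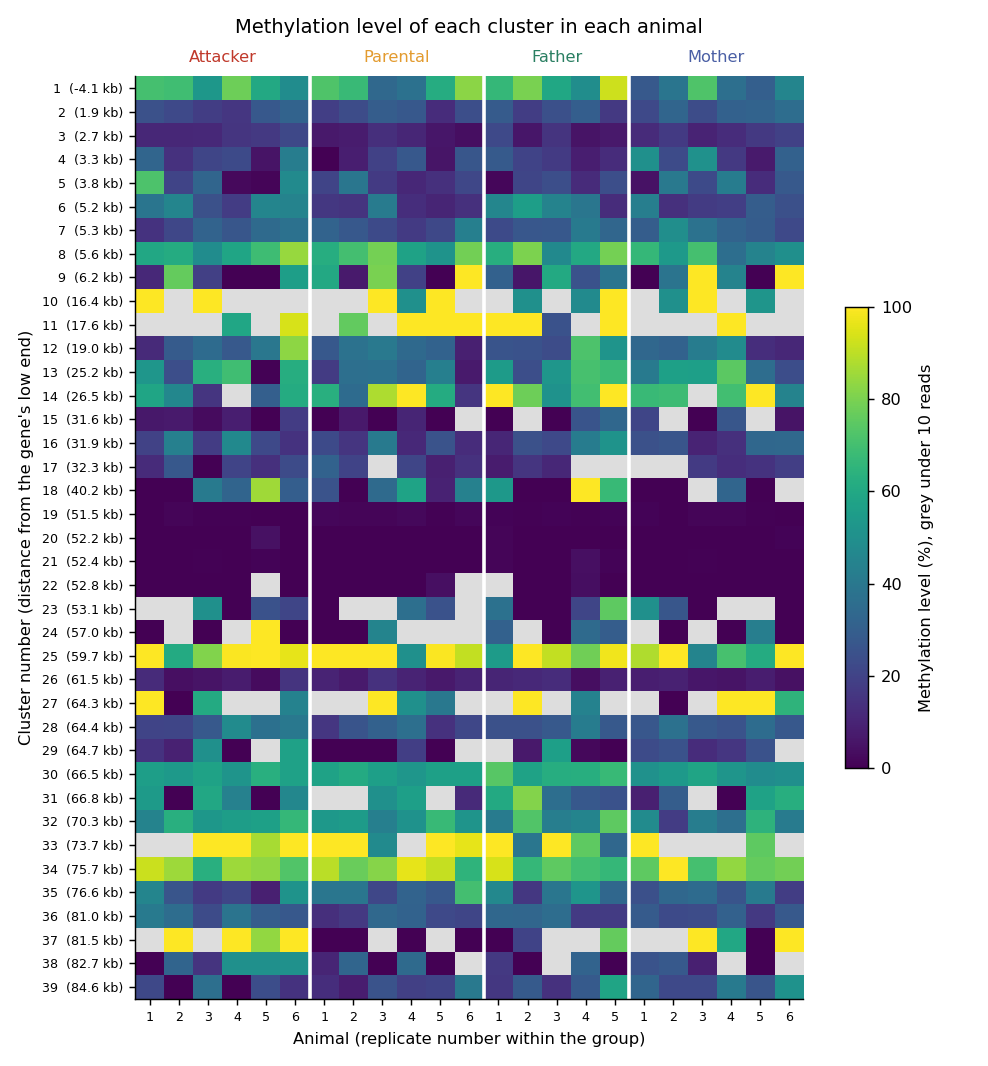
Methylation level (colour, 0% to 100%) of each of the 39 clusters (rows, with their distance from the low end of the gene) in each animal (columns, by group), grey where an animal had under 10 reads. Clusters 19 to 22 are dark in all animals with enough reads (cluster 22 is grey in some animals), and cluster 30 is even across animals. Sparse clusters such as 9 and 18 switch between dark and bright within some groups, and cluster 37 within “Father” and “Mother” only.

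By its well-read cytosines, which leave out most of the span, Casz1 was among the more methylated genes that RRBS covers well. Of 4094 genes with 20 or more well-read cytosines, 96.1% had a lower mean level than its 13.9%, and 95.7% a smaller SD over the 23 animals than its 3.45 points. At all well-read cytosines of the series the group means lay between 5.26% and 5.46%. The genes whose mean level went most alike with that of Casz1 over the 23 animals were Akip1 (r = 0.67), Tmem132e (r = 0.67), Ccdc97 (r = 0.63), Ttyh2 (r = 0.61) and Zfp64 (r = 0.61, Pearson). Their own levels were low, from 0.35% to 3.04%, and over the 4093 genes the middle r was 0.025 with 95% of genes under 0.344, so that these are the upper tail of many values and a description only.

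DMCs were also counted in the genes next to Casz1 and in those tied to it by function. The nearest genes are Pex14, for import of proteins into peroxisomes, 5741 bp away on the low side, and Dffa, an inhibitor of the DNase of apoptosis, while on the high side C10H1orf127 lies 219784 bp away and Tardbp, which encodes an RNA-binding protein, 268797 bp away. Over these 4 genes 2, 2, 3 and 3 DMCs were found in the 4 comparisons, in the order used for the members, among 364, 346, 333 and 345 tested cytosines (0.549%, 0.578%, 0.901% and 0.87%). Of 13 NuRD subunits 10 matched the gene table, with 4, 10, 6 and 12 DMCs in the same order (0.37%, 0.949%, 0.592% and 1.13%). The histone deacetylase genes Hdac1 and Hdac2 had 0 to 1 DMC in each comparison and mean levels of 0.437% and 0.845%. Chd3, a remodelling subunit, had 6 of 81 in “Father” vs “Mother” and 4 of 81 in “Attacker” vs “Father”, which share the “Father” animals. Mta1, another subunit, had 3 of 70, 3 of 59, 1 of 55 and 4 of 57 in the 4 comparisons, while Mta2, Mbd3, Rbbp4 and Rbbp7 had 0 in all 4. Of 6 factors of temporal patterning 5 matched, with 5, 7, 5 and 10 DMCs (0.434%, 0.616%, 0.436% and 0.891%), of which Pou2f2, a POU-domain factor, held 5, 6, 4 and 8. The 6 cardiac and vascular partners and targets had 2, 6, 3 and 5 (0.27%, 0.831%, 0.414% and 0.682%), with Tbx5 at 1, 3, 1 and 4 and Rhoa at 0 in all 4. Beside the shares of all tested cytosines given above (0.733%, 0.905%, 1.12% and 1.1%), the lists stood under the level of the series in each comparison, apart from the NuRD list, which was slightly over it for “Attacker” against “Father” and for “Father” against “Mother”.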

How the data were processed

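RRBS libraries of the DG of 23 voles were analysed, 1 per animal, grouped by the behavioural group in the sample labels. The authors trimmed reads with Trim Galore, used Bismark for alignment to MicOch1.0, and deposited, per CpG cytosine and strand, counts of reads and of methylated reads, without normalization. Reads carry no molecular identifiers, so intervals cover counting error only. Calls per animal ranged from 64896224 to 129376223. Gene spans came from a RefSeq table of the same assembly.

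The members and gene lists were chosen with earlier results of these data known. DMCs came from a beta-binomial Wald test written after DSS, with 0.5 methylated reads per added read and a log-normal dispersion prior from cytosines with over 10 reads, fitted on all cytosines of the series and only on the animals compared. Simulated counts at 200000 cytosines, 200 of them changed, were recovered at 91% to 93% by the score, with 245 to 293 false calls. These rates were not split by the number of animals with reads. They are therefore not error rates of the calls that rested on few animals. Levels of segments and clusters were compared by exact permutation tests (two-sided p, the smaller tail doubled), with Benjamini-Hochberg adjustment over the 9 segment tests and the 99 cluster tests.

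Described by name were the chosen cytosine, that is the member with the smallest “Attacker” vs “Parental” p among those with 10 reads in 4 animals of each group and no overlap, the 5 smallest-p DMCs per comparison with 10 reads in 3 animals of each group, cytosines within 2 kb of the gene ends, the 5 clusters with the widest range among those with 10 reads in 20 or more animals, the 5 with the smallest p and the 5 genes most alike. Same-numbered animals did not deviate together (correlations of -0.0193 to 0.0521 over well-read cytosines), so numbers were not taken as pairs. RNA-seq libraries were not used here. Sequences are not shown, since no genome was used. Software was matplotlib 3.10.9, numba 0.67.0, numpy 2.4.6, pandas 2.3.3, Python 3.11.15 and scipy 1.17.1.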

Additional observations from a re-analysis of the deposited data

Results flagged for a closer look

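Of 47 groups of 4 to 6 animals examined over the 3 segments, the named clusters and the chosen cytosine, 4 held an animal far from the others of its group. Chance flags about 1 in 20 groups of untied values. In the high-side flank “Parental” animal 3 was at 26.1%, with the next “Parental” vole at 20.2%, and “Mother” animal 5 was at 24.5%, with the next at 19.01%. In the 2 remaining groups the other animals were tied at an end of the scale, so that any animal off that end stands apart by construction and the chance rate does not apply. In cluster 18 “Mother” animal 4 was at 32.6% on 46 reads, while the other 3 “Mother” voles with enough reads were at 0%. At the chosen cytosine “Attacker” animal 5 was at 83.9% on 62 reads, the deepest of all, and the other 3 “Attacker” voles with reads were at 100%. These “Attacker” levels also chose the locus.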

How the results depend on the processing

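The DMC counts depended on the criterion, listed for “Attacker” against “Parental”, then “Attacker” and “Parental” each against “Father”, then “Father” against “Mother”. The counts of 9, 5, 12 and 9 became 1, 0, 1 and 0 with an adjusted p under 0.05, 1, 0, 0 and 0 with 10 reads in 4 animals of each group and 2, 0, 0 and 1 with 5 reads in 3 animals, where fewer cytosines were tested. Over the whole series the counts of 20214, 24153, 29416 and 28760 fell to 451, 836, 1371 and 1293 with an adjusted p. With 10 reads in 4 animals they were 472, 494, 500 and 646, and with 5 reads in 3 animals 2284, 2537, 2530 and 2829. At an unadjusted Wald p under 0.05 with a difference over 15 points the counts among the members were 10, 8, 19 and 12. With the strands summed they were 13, 5, 17 and 7. Over the whole series both criteria also gave more calls than the main one in each comparison. Fewer cytosines were tested with the strands summed. No change at the locus is therefore read from these counts of members. Leaving out 1 animal at a time gave 8 to 17, 4 to 12, 8 to 19 and 9 to 14. Over the whole series the count rose each time an animal was left out. No cluster passed the adjusted threshold in any comparison under any alternative (0 in each, also with the replicate block and without each animal). With this number of animals and tests a single cluster could not have passed under any of them, so these zeros say little. No segment passed the adjusted threshold either. Without 1 animal, a single segment at the smallest possible p could not have passed over the 9 tests. The direction turned for differences that were small beside their spread. For the gene span, “Attacker” vs “Father” was -0.35 points with 5 reads in every animal and -2.43 with 20, and “Father” vs “Mother” was 1.25 with all reads pooled and 5.20 with 20 reads. For the high-side flank, “Attacker” vs “Father” was -2.10 with all reads pooled, -0.178 with 5 reads, -0.348 in the replicate block and -0.736 to 1.27 without 1 animal, being negative without “Attacker” animal 4, “Attacker” animal 6 or “Father” animal 4. The cause was not tested. The low-side flank had no cytosine with 20 reads in every animal. At the chosen cytosine “Father” vs “Mother” was 58.2 points over the 2 pairs of the replicate block and -37.5 to 0.49 without 1 animal, and the strands could not be summed because 1 strand was covered. The block, a mean over same-numbered animals with an exact sign-flip test, gave no p under 0.05 at any segment or cluster (smallest 0.0625). Its 5 pairs cannot give less. Depth limits all of these values, since 110 of 1035 members had 10 reads in all 23 animals.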
